A study of Mus musculus with 6 samples.

Results

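The genes described here are 42 targets of the transcription factor p53 and genes of programmed cell death. The choice was by known function and not by a rule on their values, although earlier results of these data were known. Among them are p53 and its inhibitors, p53 target genes, the Bcl2 family, death receptors, caspases and their inhibitors. They were followed in the head ectoderm of mouse embryos on 6 Illumina MouseWG-6 v2 bead arrays. The KO group was surface ectoderm of CBP/p300-/- embryos at embryonic day 9.5 (3 arrays), and the WT group was lens placode of wild-type embryos of the same age (3 arrays). Both groups had a mixed background of FVB and 129. CBP (gene Crebbp) and p300 (gene Ep300) are lysine acetyltransferases that serve as transcriptional coactivators, and the study's mutants are conditional, with a Cre recombinase directed to the lens-forming head ectoderm. For arrays of embryos of a later day its methods name floxed embryos with and without Pax6-Cre, which makes those controls floxed and free of Cre. A Cre reporter in that line also marked some cells of the retina, the face and the limbs at a later stage. Whether this description holds for the arrays labelled here is not settled by the sources used here. Per the labels, each genotype was represented by a single pool of RNA from 3 embryos, amplified 3 times, so the arrays of a genotype are repeated amplifications of 1 pool. The p-values therefore measure the spread between amplifications and compare the pools, although the study calls its sets biological replicates. The tissue label changes together with the genotype, and these cannot be told apart.

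p53 is a transcription factor kept scarce by Mdm2, the ubiquitin ligase that marks it for destruction, and it accumulates after DNA damage and other stress. It is acetylated by CBP and p300, which also act as its coactivators at target genes. Its targets include genes that halt the cell cycle, such as Cdkn1a (p21), genes that start cell death, such as Bbc3 (Puma) and Pmaip1 (Noxa), and Mdm2 itself, which closes a feedback loop. Cell death by the mitochondrial route is set by the Bcl2 family: BH3-only proteins activate the pore-forming effectors Bax and Bak, survival members hold them back, and released cytochrome c assembles Apaf1 with caspase-9. The other route begins at death receptors, which recruit the adaptor Fadd and caspase-8. Local cell death is part of the normal shaping of the early eye.

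Of the 42 genes, 40 had at least 1 probe under their symbol, 113 probes in all out of 45281 on the array. No probe carried the symbol of Trp53 (p53) or Bax in the annotation used, and these genes were not analysed here. A probe was taken as above background on an array where its detection p-value, set against the negative control beads, was under 0.01. It was tested where it was above background on all 3 arrays of at least 1 genotype. On this rule 58 member probes and 30 of the 40 members were tested, against 37.5% of the 19057 named genes on the array. Each tested member is represented by its brightest tested probe, by the mean over all 6 arrays. Values are log2 intensities after background correction and quantile normalization. Fold changes are KO minus WT on that scale with their standard error (SE), and means are over 3 arrays with their SD. A probe was called where the limma adjusted p was under 0.05 and the fold change was 1 or more in size. Intensities of different probes are not comparable, so for single genes only differences between genotypes at the same probe are described. The marker sums given below add intensities of different probes, and the brightest probes weigh most in them.

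Promoter sequence was at hand for 36 of the 42 members, as 50 windows of 300 bases (250 before to 50 after the transcript start, from RefSeq on GRCm38.p6). Mdm2 and Plk2 are shown, the first as the p53 target that feeds back on p53 and the second as the cell cycle target with the largest fold change. In the Mdm2 window, chr10:117710709-117711008 on the minus strand, the capitals mark a match to the p53 half-site. In the Plk2 window, chr13:110394794-110395093 on the plus strand, they mark the cyclic AMP response element TGACGTCA, the element bound by CREB, after which CBP is named.
Mdm2: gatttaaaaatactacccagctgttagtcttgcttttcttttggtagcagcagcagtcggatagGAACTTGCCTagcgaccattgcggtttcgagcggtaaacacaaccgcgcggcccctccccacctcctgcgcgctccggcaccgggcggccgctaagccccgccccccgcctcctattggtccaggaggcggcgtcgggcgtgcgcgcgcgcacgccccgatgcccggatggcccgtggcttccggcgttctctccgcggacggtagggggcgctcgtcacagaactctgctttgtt
Plk2: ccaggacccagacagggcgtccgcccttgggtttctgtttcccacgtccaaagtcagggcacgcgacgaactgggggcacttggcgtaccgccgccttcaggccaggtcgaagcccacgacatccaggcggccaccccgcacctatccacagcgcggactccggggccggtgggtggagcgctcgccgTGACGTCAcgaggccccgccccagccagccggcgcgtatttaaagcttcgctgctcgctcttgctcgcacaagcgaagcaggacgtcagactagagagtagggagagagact
Searched on both strands, the p53 half-site was found in 12 of the 50 member windows (24%), against 8.36% of all 32851 windows. The windows belonged to 11 members: Mdm2, Cdkn1a, Ccng1, Gadd45a, Gtse1, Sesn1, Ei24, Aen, Trp53, Bax and Birc2. The response element TGACGTCA was found in 3 windows (6%), of Plk2, Btg2 and Birc2, against 1.79% of all windows. The GC box GGGCGG was found in 66% of member windows and 35.7% of all windows, CCAAT in 40% and 37.4%, and TATAAA in 4% and 13.6%. The motifs searched do not share their sequence. A match is a description of these letters, and binding was not measured.

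The arrays differed in signal and in marker genes. Between 14759 and 17195 probes were above background on the KO arrays and between 12212 and 15325 on the WT arrays, with the lowest number on WT replicate 1, which also had the highest raw median intensity (141, against 85.6 to 95.5 on the others). Summed linear intensity of the blood markers was 13738 to 14425 in KO and 5769 to 7516 in WT. In the blood list 5 of 8 genes on the array were higher on every KO array than on any WT array, and 1 was not above background on any array. The lens placode markers summed to 6123 to 8797 in KO and 12588 to 14982 in WT, with 8 of 12 lower on every KO array, and the surface ectoderm markers to 18142 to 20325 in KO and 24042 to 26009 in WT, with 4 of 14 lower and 1 higher on every KO array. The endothelial markers summed to 478 to 1046 in KO and 285 to 325 in WT, with 7 of 9 at background on every array and 1 (Cldn5) higher on every KO array, at least 6.43-fold and without a call (adjusted p = 0.0711). For macrophages the sums were 227 to 276 in KO and 249 to 422 in WT, with 6 of 8 at background on every array. The sums of the mesenchyme and neural crest markers (3182 to 3820 in KO, 3154 to 5424 in WT) and of the optic vesicle markers (1444 to 2197 in KO, 859 to 4759 in WT) overlapped. Of the 14 mesenchyme and neural crest genes on the array, 4 were higher and 3 lower on every KO array, and 1, Alx4, was called, at least 10.7-fold brighter in KO (adjusted p = 0.0489). Of the 6 optic vesicle genes on the array, 1 (Otx2) was higher on every KO array. The part that these marker differences have in the gene values was not tested. Fewer cells of a type and less RNA per cell cannot be told apart in such samples. At its 2 tested probes Crebbp gave 0.19 ± 0.50 and 0.11 ± 0.47, and Ep300 gave 0.18 ± 1.10 at its brighter probe. The other Ep300 probe was above background on no WT array and at least 3.03-fold brighter in KO, without a call (adjusted p = 0.0738), where the fold is a lower bound with the dimmest signal above background of each WT array in place of the probe's own. Where these probes lie relative to the deleted parts was not examined, so they do not check the labels.

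In KO surface ectoderm against WT lens placode, 1 of the p53 targets and cell death genes was called. Tnfrsf10b, the mouse receptor for the death ligand TRAIL and a p53 target, was called higher in KO at 2 of its 5 probes. Both called probes entered the test through KO, with no WT array above background. The brightest probe, above background on all 6 arrays, was not called, and 0 members were called among probes above background on all 6 arrays. With that filter 2 of all 8894 probes were called lower and 0 higher, so the 0 says nothing particular to the members. In the fit over all probes, 0.49% of the 7141 tested genes had a probe called higher and 0.616% a probe called lower. No member was called lower by limma. At an unadjusted limma p under 0.05, 3 of the 30 tested members were higher in KO (Plk2, Bak1 and Tnfrsf10b), beside 7.21% of all tested genes, and 2 were lower (Bid and Fadd), beside 6.68%. Fold changes were positive for 15 members and negative for 15, with a median of 0.0024, and over all 7141 tested genes 3734 were positive and 3407 negative, with a median of 0.03. A fold change of 1 or more in size was found for 5 members (16.7%), against 21.5% of all tested genes. The KO arrays lay wholly above the WT arrays for 6 members (Mdm2, Plk2, Trp53inp1, Bak1, Bok and Tnfrsf10b), where the background over all tested genes was 10.5%, and wholly below them for 3 (Bid, Mcl1 and Fadd), where it was 9.96%. Over the 58 tested member probes, 9 were higher and 5 lower at an unadjusted p under 0.05, where the shares of all 12697 tested probes were 8.58% and 6.61%. The KO arrays lay above all WT arrays at 12 of these probes and below them at 7, where the shares were 11.3% and 10.2%. At 3 of them, all of Tnfrsf10b, KO arrays were above background and no WT array was, beside 2.58% of all tested probes. Without WT replicate 1 the median fold change of the members, each at its brightest probe, was 0.27. In that fit 2 members were higher and 2 lower at an unadjusted limma p under 0.05. Counted by probe and not by gene, the median over all 12697 tested probes was 0.04, with 1142 higher and 779 lower.

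**Figure D1:**
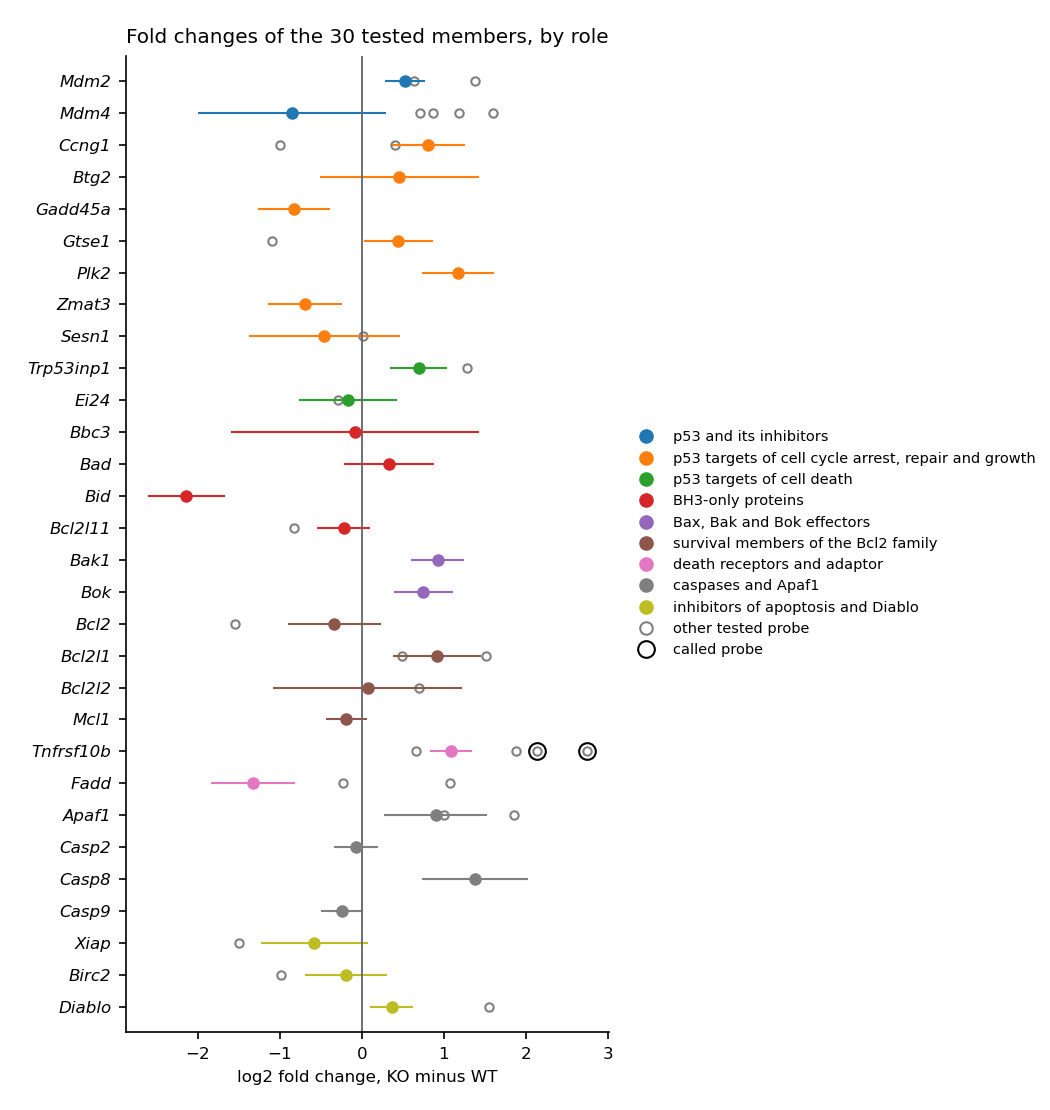
The x axis gives the log2 fold change (KO minus WT) of the 30 tested members, one row per gene and one colour per role, with bars for the SE. Small open circles are other tested probes of the gene and large open circles the called ones, both of Tnfrsf10b; the filled points lie on either side of 0, 15 to the right and 15 to the left.

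**Figure D2:**
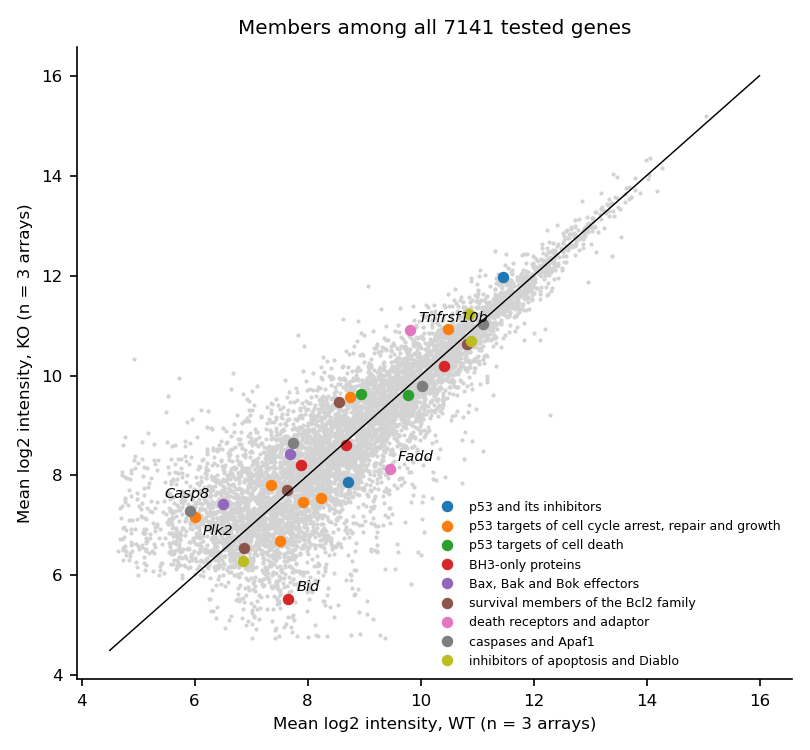
Mean log2 intensity of the 3 KO arrays (y axis) is plotted against that of the 3 WT arrays (x axis) for all 7141 tested genes in grey and the 30 tested members in colour by role, with the line of equal values. The members lie within the cloud of all genes, and the 5 with a fold change of 1 or more in size are named, with Plk2, Casp8 and Tnfrsf10b above the line and Bid and Fadd below it.

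Among the inhibitors of p53, Mdm2 had log2 intensities of 12.03, 11.87 and 12.05 on the KO arrays and 11.38, 11.61 and 11.38 on the WT arrays. All KO arrays lay above all WT arrays, by a small amount. The mean was 11.98 ± 0.098 in KO and 11.46 ± 0.14 in WT, a fold change of 0.52 ± 0.24 that did not pass the test (adjusted p = 0.386). A second Mdm2 probe, singled out after its values were seen, read 8.89, 8.73 and 8.39 in KO and 7.91, 6.98 and 6.96 in WT. Its groups did not overlap either, and its fold change was 1.38 ± 0.36 (unadjusted p = 0.00837, adjusted p = 0.156). The third tested probe gave 0.64 ± 0.46, so that the 3 Mdm2 probes shared a sign and none was called. Mdm4, the relative of Mdm2 that blocks the activity of p53, read 5.79, 10.098 and 7.72 in KO and 8.103, 9.95 and 8.09 in WT at its brightest probe, for a fold change of -0.85 ± 1.15 (adjusted p = 0.803). The KO arrays of Mdm4 thus spanned the whole WT range and more. Its 4 other tested probes gave fold changes of 0.71 to 1.598, opposite in sign to the brightest probe, and none was called.

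Of 9 p53 targets that act in cell cycle arrest, DNA repair and growth, 7 were tested, 4 with a positive and 3 with a negative fold change (median 0.45). Cdkn1a, the cyclin-dependent kinase inhibitor p21 and the best known p53 target, was at background on almost every array. Its 3 probes read 5.09, 4.84 and 6.24 in KO and 6.26, 4.85 and 5.76 in WT, then 5.35, 5.55 and 5.68 in KO and 4.64, 5.26 and 5.36 in WT, and then 4.56, 4.72 and 4.62 in KO and 4.86, 4.5997 and 4.63 in WT. The first and the second were each above background on 1 KO array, and no probe was on a WT array. It was therefore not tested, and a difference was not detectable at this signal. Plk2, a polo-like kinase induced by p53, read 7.899, 6.33 and 7.31 on the KO arrays and 5.96, 6.04 and 6.01 on the WT arrays. The groups did not overlap, and the KO arrays were the more scattered. Its fold change of 1.17 ± 0.44 had an unadjusted p of 0.0349 and did not pass the adjustment (adjusted p = 0.281). Since Plk2 was above background on 2 of the 3 WT arrays, its WT mean holds a background reading.

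The other targets of this kind had overlapping groups. Ccng1, cyclin G1, averaged 9.57 ± 0.71 in KO and 8.76 ± 0.39 in WT (fold change 0.81 ± 0.44, adjusted p = 0.466), with a further probe at 0.402 and another of opposite sign at -0.999. Gadd45a, a stress sensor linked to DNA repair, averaged 6.69 ± 0.403 in KO and 7.52 ± 0.69 in WT (-0.83 ± 0.44, adjusted p = 0.451). Zmat3, a zinc finger protein that binds RNA, averaged 7.55 ± 0.31 in KO and 8.24 ± 0.77 in WT (-0.69 ± 0.45). For these 3 genes the difference was less than 2 SE. Btg2, an antiproliferative gene, read 7.605, 7.57 and 8.26 in KO and 8.61, 8.39 and 5.07 in WT, with WT replicate 3 at background and the other WT arrays above every KO array (0.46 ± 0.97). Gtse1, which holds p53 in check in the second gap phase of the cell cycle, averaged 10.93 ± 0.203 in KO and 10.48 ± 0.73 in WT (0.45 ± 0.42). Its second probe, singled out after its values were seen, had the opposite sign and no overlap, with 6.62, 6.45 and 6.51 in KO and 6.94, 7.59 and 8.31 in WT (-1.09 ± 0.395, adjusted p = 0.274). All 3 members with more than 1 tested probe in this group (Ccng1, Gtse1 and Sesn1) had probes of both signs. Sesn1, a sestrin that restrains growth signalling, gave -0.45 ± 0.92 and 0.01 ± 0.67. Sesn2, its relative, was not tested, with each of its 3 probes above background on 1 KO array and on no WT array.

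Of the 5 p53 targets tied to cell death, Trp53inp1 and Ei24 were tested. Trp53inp1, a nuclear protein that promotes p53 activity and autophagy, read 9.47, 9.49 and 9.95 in KO and 8.38, 9.25 and 9.21 in WT. The groups did not overlap, with the lowest KO array close to the highest WT array, and the fold change was 0.69 ± 0.35 (adjusted p = 0.426). Its second probe, singled out after its values were seen, read 8.57, 9.36 and 8.58 in KO and 7.51, 7.49 and 7.67 in WT, for a fold change of 1.28 ± 0.32 (unadjusted p = 0.00641, adjusted p = 0.137). Both probes thus had every KO array above every WT array without a call. Ei24, a membrane protein of the endoplasmic reticulum, averaged 9.61 ± 0.41 in KO and 9.77 ± 1.11 in WT (-0.17 ± 0.597), and its second probe gave -0.29 ± 0.54. Perp, a component of epithelial junctions that also promotes death, was above background on 2 KO arrays and 1 WT array. Phlda3, an inhibitor of Akt signalling, was likewise above background on 2 KO arrays and 1 WT array at its better probe. Aen, a nuclease, was above background on KO replicate 3 at 1 probe (8.68), on KO replicate 2 at another (5.95), and on no WT array. These 3 genes were not tested.

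**Figure D3:**
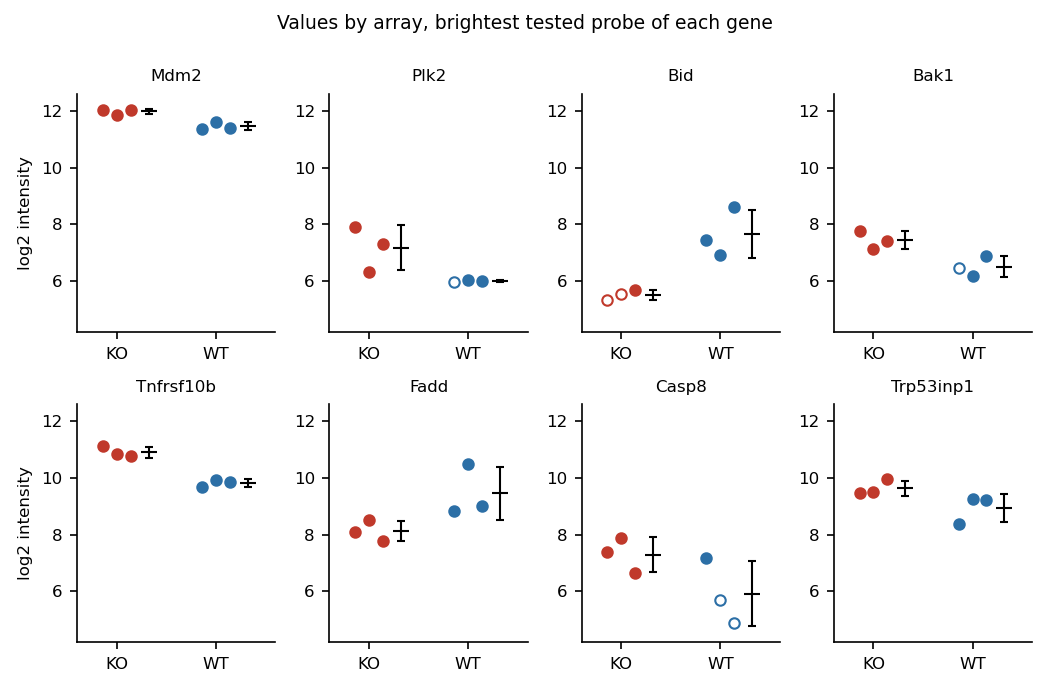
Log2 intensity (y axis) of the brightest tested probe of 8 members is shown for the 3 KO arrays (left, red) and the 3 WT arrays (right, blue). Filled points are above background and open points are not, and the bars give the mean and SD; Bid lies at 5.34 to 5.69 in KO and 6.92 to 8.603 in WT, and the KO points of Casp8 overlap those of WT.

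Of 6 BH3-only proteins, the sensors that start death at the mitochondrion, 4 were tested (median fold change -0.15). Bid, which caspase-8 cleaves to join the death receptor route to the mitochondrial one, read 5.34, 5.54 and 5.69 on the KO arrays and 7.45, 6.92 and 8.603 on the WT arrays. Every KO array lay below every WT array, and the WT arrays were the more scattered. The means were 5.52 ± 0.17 in KO and 7.66 ± 0.86 in WT. The fold change of -2.14 ± 0.47 was the largest in size among the brightest probes of the 30 tested members, and it did not pass the test (unadjusted p = 0.00367, adjusted p = 0.114). Bid was above background on 1 of 3 KO arrays, so the fitted size rests partly on background readings. Another Bid probe was not tested and read 6.59, 5.75 and 5.48 in KO and 4.65, 6.25 and 7.81 in WT, with overlapping groups. Bbc3 (Puma), a p53 target, read 10.22, 5.51 and 10.099 in KO and 10.17, 6.73 and 9.17 in WT. KO replicate 2 and WT replicate 2 were the low arrays of their groups, and the fold change was -0.08 ± 1.51. Bcl2l11 (Bim) averaged 10.19 ± 0.37 in KO and 10.41 ± 0.33 in WT (-0.22 ± 0.33, with -0.82 ± 0.39 at a second probe), and Bad averaged 8.21 ± 1.001 in KO and 7.88 ± 0.36 in WT (0.33 ± 0.55). Pmaip1 (Noxa), a p53 target, was not above background on any array at its 3 probes, which read 4.71 to 5.05 in KO and 4.72 to 5.28 in WT. Bik was above background on 1 KO array and no WT array.

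Of the effectors, the proteins that open the outer mitochondrial membrane, Bak1 and Bok were tested, each with every KO array above every WT array, as for 10.5% of all tested genes. Bak1 read 7.76, 7.15 and 7.41 in KO and 6.47, 6.17 and 6.897 in WT, a fold change of 0.93 ± 0.32 (unadjusted p = 0.027, adjusted p = 0.254). It was above background on all KO arrays and on 2 of 3 WT arrays. Bok, a relative found chiefly at the endoplasmic reticulum, averaged 8.43 ± 0.23 in KO and 7.68 ± 0.54 in WT (0.75 ± 0.36, adjusted p = 0.399). Neither passed the test.

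The 4 survival members of the Bcl2 family were tested, and their median fold change was -0.06. Mcl1, a short-lived survival protein, was even across the arrays, with 10.66, 10.56 and 10.68 in KO and 10.74, 11.03 and 10.698 in WT. The KO arrays were all below the WT arrays, by a fold change of -0.19 ± 0.25 (adjusted p = 0.800), and the lowest WT array stood close to the highest KO array. Bcl2, the founding member, averaged 6.55 ± 1.03 in KO and 6.88 ± 0.398 in WT (-0.33 ± 0.56). Its second tested probe, singled out after its values were seen, read 5.29, 5.07 and 6.05 in KO and 8.198, 6.43 and 6.42 in WT (-1.55 ± 0.58, unadjusted p = 0.0367, adjusted p = 0.286), with 1 KO array above background, and without WT replicate 1 the fold change was -0.95. Bcl2l1 (Bcl-xL) had 9.23, 9.18 and 10.01 in KO and 8.63, 7.601 and 9.45 in WT (0.91 ± 0.54), and its other probes gave 1.51 and 0.49. Bcl2l2 (Bcl-w) read 8.06, 8.92 and 6.17 in KO and 7.78, 5.601 and 9.55 in WT. The KO arrays lay within the wider WT range, and the fold change was 0.07 ± 1.15.

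The death receptors held the called member. Tnfrsf10b had 5 probes, all tested, and all 5 fold changes were positive. At the brightest, ILMN_2945095, it read 11.13, 10.84 and 10.76 on the KO arrays and 9.67, 9.93 and 9.85 on the WT arrays. Here every array of both genotypes was above background, the groups stood well apart, and the fold change was 1.09 ± 0.26 (unadjusted p = 0.00491, adjusted p = 0.125), short of a call. At ILMN_1230700 it read 7.75, 7.198 and 8.26 in KO and 5.44, 4.73 and 4.79 in WT, with no WT array above background. The fold is again a lower bound. This probe was called, at least 2.97-fold brighter in KO (adjusted p = 0.0479). ILMN_2455181 read 6.81, 7.18 and 7.42 in KO and 4.89, 5.08 and 5.02 in WT, was above background on no WT array, and was called at least 1.95-fold brighter in KO (adjusted p = 0.0371). ILMN_2460875 showed the same pattern, with 6.22, 6.502 and 6.999 in KO and 4.897, 4.59 and 4.596 in WT, at least 1.32-fold brighter in KO, and just missed the threshold (adjusted p = 0.0596). The fifth probe, ILMN_2454348, overlapped between the groups, with 7.62, 5.89 and 6.58 in KO and 4.72, 6.19 and 7.22 in WT (0.66 ± 0.75, adjusted p = 0.758). Whether these probes read the same or different transcripts of Tnfrsf10b was not examined.

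The call of Tnfrsf10b was not kept with fewer arrays. Leaving out any 1 of the 6, KO replicate 1, 2 or 3 or WT replicate 1, 2 or 3, left neither probe called, with adjusted p of 0.0926 to 0.154 for ILMN_1230700 and 0.0989 to 0.138 for ILMN_2455181. In those smaller fits 0 to 3 of the 12697 probes were called in all, so the loss says nothing particular to Tnfrsf10b. Neither probe was called without background correction (adjusted p = 0.0914 and 0.0949). The brightest probe kept a fold change of 0.97 to 1.17 under every alternative run and was called under none. The KO arrays also had the higher blood and endothelial marker sums and the lower lens placode and surface ectoderm sums given above, and the part of these in the Tnfrsf10b result was not tested.

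**Figure D4:**
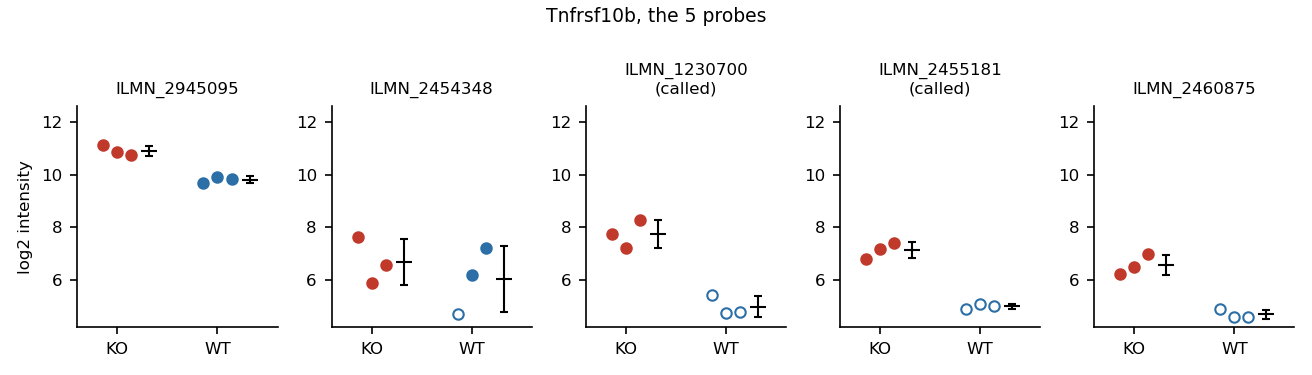
The 5 probes of Tnfrsf10b are shown from the brightest (left) to the dimmest, with log2 intensity on the y axis and the 3 KO arrays (red) left of the 3 WT arrays (blue). Filled points are above background, open points are not, and bars give the mean and SD; at 3 of the probes all WT points are open, and at 4 of them all KO points lie above all WT points.

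Fadd, the adaptor that links the receptors to caspase-8, read 8.09, 8.51 and 7.78 in KO and 8.83, 10.51 and 9.02 in WT at its brightest probe. The groups did not overlap, and the fold change of -1.32 ± 0.51 did not pass the adjustment (unadjusted p = 0.0412, adjusted p = 0.300). Its other tested probes gave 1.07 ± 0.96 and -0.23 ± 0.58, so the sign differed between probes of Fadd. Tnfrsf1a, the receptor for tumour necrosis factor, had a pattern that divided the arrays within each genotype. Its 3 probes read 7.46 to 7.58 on KO replicate 1 and 8.15 to 8.7997 on WT replicates 2 and 3, and 4.705 to 5.09 on the other KO arrays and 4.85 to 4.87 on WT replicate 1. It was thus above background on 1 KO array and 2 WT arrays, the same arrays at each probe, and it was not tested. Fas, the receptor for Fas ligand and a p53 target, was not above background on any array at its 4 probes, which read 4.61 to 5.14 in KO and 4.597 to 5.53 in WT.

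Among the caspases and Apaf1, 4 of 5 were tested (median fold change 0.42). Casp8, the initiator caspase of the death receptor route, read 7.38, 7.87 and 6.64 in KO and 7.16, 5.69 and 4.899 in WT. WT replicate 1 lay within the KO range, the other WT arrays were at background, and the fold change was 1.38 ± 0.65 (unadjusted p = 0.077, adjusted p = 0.395). On leaving out each array in turn it ran from 0.87 (without WT replicate 3) to 2.002 (without WT replicate 1), with limma adjusted p of 0.187 to 0.657. Apaf1, the scaffold of the apoptosome, averaged 8.65 ± 0.76 in KO and 7.75 ± 1.002 in WT (0.902 ± 0.63, adjusted p = 0.581), with a second probe at 1.01. Another probe, singled out after its values were seen, read 7.51, 10.19 and 9.6001 in KO and 7.61, 7.24 and 6.87 in WT (1.86 ± 0.72, unadjusted p = 0.0398, adjusted p = 0.296). There KO replicates 2 and 3 were high and KO replicate 1 lay within the WT range. Leaving out each array in turn gave 1.31 (without KO replicate 2) to 2.65 (without KO replicate 1), with adjusted p of 0.122 to 0.553. Casp2 and Casp9, initiator caspases, were close between the genotypes. Casp2 averaged 11.03 ± 0.31 in KO and 11.103 ± 0.04 in WT (-0.07 ± 0.27), and Casp9 averaged 9.79 ± 0.16 in KO and 10.03 ± 0.16 in WT (-0.24 ± 0.25). Casp6, an executioner caspase, was above background on 2 KO arrays and 2 WT arrays at its better probe and was not tested.

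The last group holds the inhibitors of apoptosis Xiap and Birc2 and their antagonist Diablo (Smac), which is released from mitochondria. Xiap averaged 6.28 ± 1.099 in KO and 6.86 ± 0.71 in WT at its brightest probe (-0.58 ± 0.65). At a second probe, singled out after its values were seen, it read 5.61, 5.14 and 5.45 in KO and 7.01, 7.48 and 6.21 in WT. No KO array was above background there, and WT was at least 2.14-fold brighter without a call (unadjusted p = 0.00862, adjusted p = 0.158). Birc2 (cIAP1) averaged 10.69 ± 0.699 in KO and 10.89 ± 0.64 in WT (-0.196 ± 0.498), with -0.98 ± 0.41 at a second probe. Diablo averaged 11.23 ± 0.15 in KO and 10.86 ± 0.21 in WT (0.37 ± 0.26), and its second probe read 9.64, 9.56 and 9.698 in KO and 9.79, 5.91 and 8.53 in WT. WT replicate 2 was the low array of that probe, and its fold change was 1.56 ± 0.95.

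Arrays of the same genotype were close for some members and far apart for others. The median SD of the tested members was 0.397 in KO and 0.67 in WT, against 0.46 in KO and 0.58 in WT over all tested genes. The highest and lowest array of a genotype were more than 2 log2 units apart for 5 members in KO and 5 in WT (16.7% each), where the share of all tested genes was 12.4% in KO and 22.4% in WT. Mdm4, Bbc3, Bcl2, Bcl2l2 and Xiap were the members this far apart in KO, and Btg2, Sesn1, Bbc3, Bcl2l2 and Casp8 in WT. Probes of the same gene agreed in the sign of the fold change for 12 of the 17 members with more than 1 tested probe (70.6%), against 56.3% of 2445 such genes in all.

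**Figure D5:**
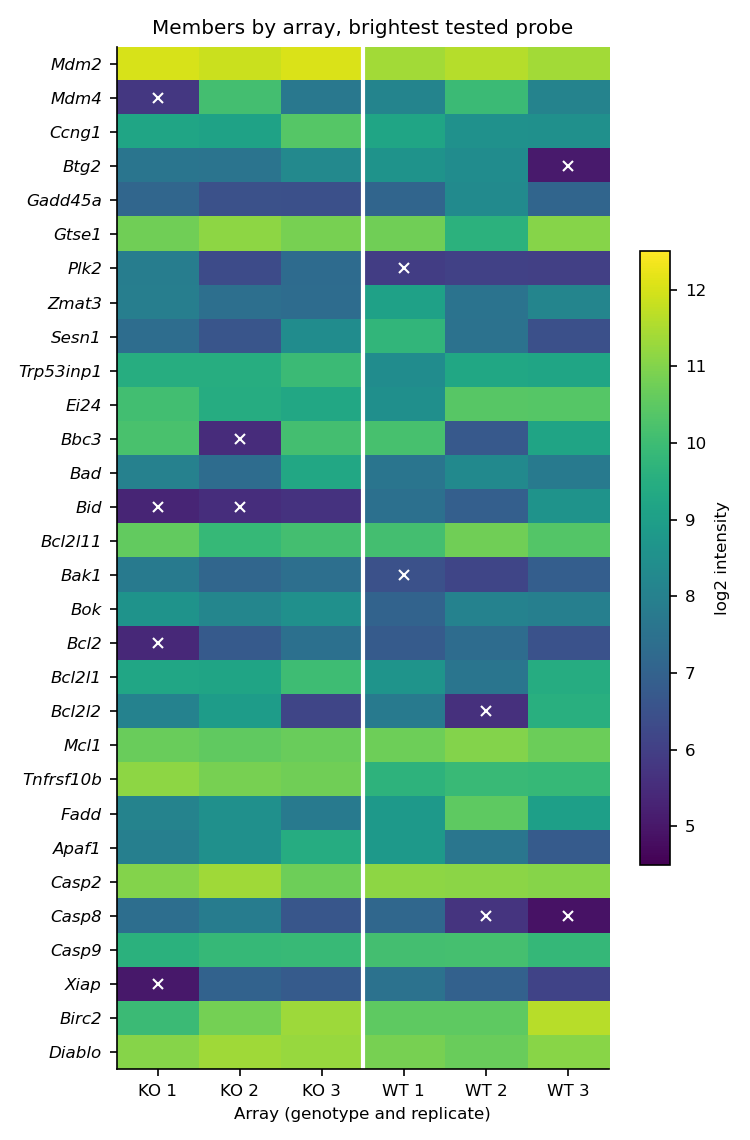
Colour gives the log2 intensity of the brightest tested probe of each of the 30 tested members (rows) on the KO arrays (left of the white line) and WT arrays (right of it), and a cross marks an array on which the probe was not above background. Crosses sit, among others, on single arrays of Bbc3, Btg2 and Mdm4 and on 2 KO arrays of Bid.

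No other gene of the pathway, from lists of function, was called by limma. Of 24 genes that encode relatives, kinases and modifiers of p53, 21 were on the array and 13 were tested, 6 with a positive and 7 with a negative fold change (median -0.03). At the brightest probes, none of them reached an unadjusted limma p under 0.05. Other probes of 3 of these genes, singled out after their values were seen, did, each with every KO array above every WT array: Hipk2 (1.55 ± 0.55, adjusted p = 0.266), Rchy1 (1.14 ± 0.38, adjusted p = 0.244) and Usp7 (0.6997 ± 0.28, adjusted p = 0.322). Of all tested probes, 8.58% were higher in KO at an unadjusted p under 0.05, and 11.3% had every KO array above every WT array. The largest fold changes at the brightest probes were those of the kinase Hipk1 (1.12 ± 1.11), the checkpoint kinase Chek1 (-0.73 ± 0.804) and the deacetylase Sirt1 (-0.703 ± 0.41), each within 2 SE of 0. Of 43 symbols on a list of further p53 targets, 39 were on the array and 24 were tested, 16 positive and 8 negative (median 0.25). Of these, 2 were higher in KO at their brightest probe at an unadjusted limma p under 0.05. None was lower, and the shares of all tested genes were 7.21% and 6.68%. Tnfrsf22, a mouse decoy receptor for TRAIL, read 8.72, 9.425 and 8.14 in KO and 7.33, 6.66 and 7.44 in WT (1.62 ± 0.43, adjusted p = 0.156). Its groups did not overlap. Ddb2, which recognises damaged DNA in nucleotide excision repair, entered the test through KO, above background on all KO arrays and no WT array (adjusted p = 0.270). The largest fold changes of that list at the brightest probes were those of Ier3, Pml and Tnfrsf22. Ier3, an early response gene, gave 2.62 ± 1.18 (limma adjusted p = 0.368). Pml, the scaffold of nuclear bodies, gave 1.97 ± 0.98 (limma adjusted p = 0.420). All 4 tested probes of Pml had positive fold changes, from 1.46 to 2.73. The largest, singled out after its values were seen, was 2.73 ± 0.64, without a call. At that probe every KO array lay above every WT array. No WT array was above background there, and KO was at least 3.75-fold brighter.

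Of 58 further apoptosis genes, 52 were on the array and 22 were tested, 10 positive and 12 negative (median -0.07). Acin1, a nuclear protein cleaved by caspases, read 8.33, 9.36 and 8.45 in KO and 7.698, 7.79 and 6.81 in WT (1.28 ± 0.43, adjusted p = 0.244). Cycs, cytochrome c, read 9.51, 9.24 and 8.8996 in KO and 10.396, 9.87 and 9.77 in WT (-0.798 ± 0.31, adjusted p = 0.305). At these brightest probes they were the genes of that list at an unadjusted p under 0.05, 1 higher and 1 lower, beside 7.21% and 6.68% of all tested genes. Neither overlapped between the groups. In all, 5 genes of the list lay wholly above and 4 wholly below, beside 10.5% and 9.96% of all tested genes. Other probes, singled out after their values were seen, also reached it without overlap, of Bag4 (1.63 ± 0.46, adjusted p = 0.182) and Aifm1 (-1.01 ± 0.29, adjusted p = 0.187). Cflar, the inhibitor of caspase-8 known as FLIP, gave 0.5999 ± 1.01. Both other probes of Cycs had the opposite sign. ILMN_3155380 gave 0.81 ± 0.32 (adjusted p = 0.306), with every KO array above every WT array, and ILMN_3076459 gave 0.84 ± 1.08, so the direction of Cycs depended on the probe.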

How the data were processed

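The authors deposited, for each of 45281 probes and 6 arrays, the scanner's mean bead intensity on a linear scale, not normalized between arrays, and a detection p-value against negative control beads. A table of processed intensities, which per their methods came from GenomeStudio (its version is not given in the sources used here) after cubic spline normalization, was deposited too and served as an alternative. Bead numbers and bead standard errors were deposited and entered no test.

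Background was corrected by normexp with an offset of 16 and parameters taken from the detection p-values. Intensities were then quantile normalized and log2 transformed, in R 4.3.3 with limma 3.58.1. KO minus WT was fitted with lmFit and eBayes (4 residual and 2.15 prior degrees of freedom) on the 12697 tested probes, two-sided, with Benjamini-Hochberg adjustment over all of them. GenomeStudio's own test was not run, and limma took its place. The fit was tested on simulated data. The lower bound of a fold sets the bright group's mean against the mean of, per dim array, the higher of the probe's signal and the dimmest signal above background. The number of arrays limits the precision.

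Symbols came from the platform annotation, which named 34885 probes by 1 symbol, left 10378 unnamed and gave 18 several. The members and lists were chosen with earlier results of these data known. Per-array values are given for Mdm2, Cdkn1a and members with a called probe, or whose brightest probe had a fold change of 1 or more in size or an unadjusted p under 0.05, and for some others chosen after their values were seen. All 6 arrays lay on 1 BeadChip.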

Additional observations from a re-analysis of the deposited data

How the results depend on the processing

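The members called lower stayed at 0 under every alternative run, and the members called higher, 1 as reported, stayed at 1 with median scaling, the deposited processed values or no filter on dim probes. That count was 0 without background correction and with the filter on all 6 arrays, which left 21 members tested and excluded the called probes of Tnfrsf10b, and 0 on leaving out any 1 array. The count of members is by gene, and the probes behind it varied between settings. ILMN_1230700 and ILMN_2455181 were each called in 2 of 11 alternatives, and ILMN_2460875, not called in the main fit, in 1 of 11. Over all probes, 54 were called lower and 53 higher. Without background correction these were 17 and 19, with median scaling 29 lower, with the processed values 102 higher, with no filter 30 higher, and with the filter on all 6 arrays 2 and 0. On leaving out each array in turn, 0 to 0 probes were called lower and 0 to 3 higher (3 without KO replicate 2), while 684 to 840 and 807 to 1188 had an unadjusted limma p under 0.05. Members lower at an unadjusted p under 0.05, 2 as reported, were 1 with median scaling, 1 with the filter on all 6 arrays and 1 to 2 on leaving out each array. Members higher, 3 as reported, were 1 to 3 on leaving out each array (1 without KO replicate 1, KO replicate 3 or WT replicate 2) and 2 to 4 otherwise. The median fold change of the members ran from -0.00997 (without WT replicate 2) to 0.33 (21 members, with the filter on all 6 arrays). With that filter the median over all tested probes was -0.02. Under the alternatives run, that median by probe lay between -0.03 (no filter) and 0.06 (median scaling). Of 183 fold changes of 16 named probes, 0 changed sign. Apart from the brightest Mdm2 probe, these probes were picked by their call, fold change or unadjusted p in the main fit. Changes of sign were therefore unlikely from the start, and this count says nothing of the members' other probes. The cause of the changes in the counts above was not tested.

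With the replicate number as a block, 0 probes were called lower, 0 higher and 0 members higher, with 772 and 1042 probes at an unadjusted limma p under 0.05, and both called probes of Tnfrsf10b had an adjusted p of 0.207. Deviations of same-numbered arrays from their group means correlated at -0.0135, 0.0013 and -0.0261 across probes. Differently numbered arrays gave -0.0099 to 0.0236. Quantile normalization removes shifts shared by a whole array, so these values do not settle whether equal numbers mark paired arrays.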
